A study of Mus musculus with 14 samples.

Results

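Satellite cells of geriatric mice were compared with those of old mice across autosomal genes. The comparison sets 2 Geriatric arrays (C57BL/6, 30 and 29 months, replicates 1 and 3) against 3 Old arrays (C57BL/6, 22, 23 and 24 months, replicates 1 to 3), with no genetic change or treatment in either group, and every mouse is labelled male. The cells came from dissociated skeletal muscle. Cells with integrin alpha 7 and CD34 on the surface were kept by flow cytometry, those with CD31, CD45, CD11b or Sca1 were discarded, and RNA of the kept cells was amplified before labelling with Cy3. Members were the genes on chromosomes 1 to 19 whose probe was well above background on all 5 arrays, which gave 25682 of the 32863 genes tested in the series. Of these members 13051 carry a gene symbol, 8265 a clone or transcript name and 3955 the name of an intergenic interval, and 411 are chemosensory receptors. The other 9 arrays, 3 each of Young C57BL/6 mice (2 to 3 months) and of the SAMR1 and SAMP8 strains (12 months), entered the fit for its estimate of spread. The labels number the Geriatric samples 1 and 3 and name all samples biological replicates, without saying how many mice each holds.

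Satellite cells are the stem cells of skeletal muscle and lie between the muscle fibre and its basement membrane. In adult muscle they rest in quiescence, marked by the transcription factor Pax7 and held there in part by Notch signalling, in which ligands on a neighbouring cell release the receptor's intracellular domain to switch on the Hes and Hey repressors. After injury they divide, differentiate into fibres or return to quiescence. The question the series poses is how this resting state changes between old and geriatric age, and genes of quiescence, cell cycle arrest, growth factor signalling and the niche bear on it.

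Between 79.8% and 88.7% of probes were well above background on the 5 arrays, and no spot was saturated. The median ratio of spot signal to local background was 6.23 to 6.86 on Old and 8.03 and 8.06 on Geriatric arrays. Geriatric 1 had 969 outlier spots, and the other 4 arrays had 128 to 165. Old 2 lay on slide 1 and the other 4 arrays on slide 2, as read from the array identifiers. Across the members, correlations (r) were 0.9642 to 0.9694 within a group and 0.8916 to 0.9408 between an Old and a Geriatric array. The first principal component of the 5 arrays held 66.8% of the variance and placed Old 3 (-28.05) nearest to the Geriatric arrays (79.28 and 105.64), with Old 1 and Old 2 at -83.61 and -73.26. Against the male label, Xist, the RNA that silences an X chromosome in female cells, was well above background on all 3 Old arrays and on neither Geriatric array. The Y-chromosome genes Ddx3y, Uty and Kdm5d were well above background on both Geriatric arrays and on no Old array. All 3 libraries labelled Old thus went against their label by these transcripts, no comparison without them can be made, and age and the difference in sex-linked transcripts cannot be told apart in any result below. Levels are log2 signal relative to the array's 75th percentile, listed for Old 1, 2 and 3 and Geriatric 1 and 3 in that order, and a change is the Geriatric minus the Old mean on that scale, with its standard error (SE).

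Of the 25682 genes, 4408 (17.2%) passed an adjusted p of 0.05, of which 1588 (6.18%) were higher and 2820 (11%) lower in Geriatric cells. The groups did not overlap, higher in Geriatric cells, in 21.7% of genes, and lower in 32.7%. Over all 32863 genes tested 19.9% were called, 5.53% higher and 14.4% lower, and the groups did not overlap in 19.3% (higher) and 34.5% (lower). The direction differed between classes of probe target, which also differed in signal. The median level was -2.67 for chemosensory receptors, -1.17 for clone and transcript names, -0.81 for intergenic intervals and -0.45 for genes with a symbol. The part of signal level in the difference was not tested. Among genes with a symbol 1187 of 13051 rose (9.1%) and 758 fell (5.81%), 14.9% in all, and the groups did not overlap in 30.3% (higher) and 22.1% (lower). Among chemosensory receptors, the odour and pheromone receptors of the nose, 0 of 411 rose and 171 fell (41.6%), with a median change of -1.29. Clone and transcript names followed the same side, with 312 higher and 1251 lower of 8265, as did intergenic intervals, with 89 higher and 640 lower of 3955. The median change was -0.13 over all members and 0.11 over those with a symbol. Among genes tested but not detected on all 5 arrays, 325 of 587 chemosensory receptors fell and 1 rose. Of 2223 such genes with a symbol 484 fell and 125 rose. Such genes could enter only through a group where they were high, so these counts do not bear on direction.

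**Figure D1:**
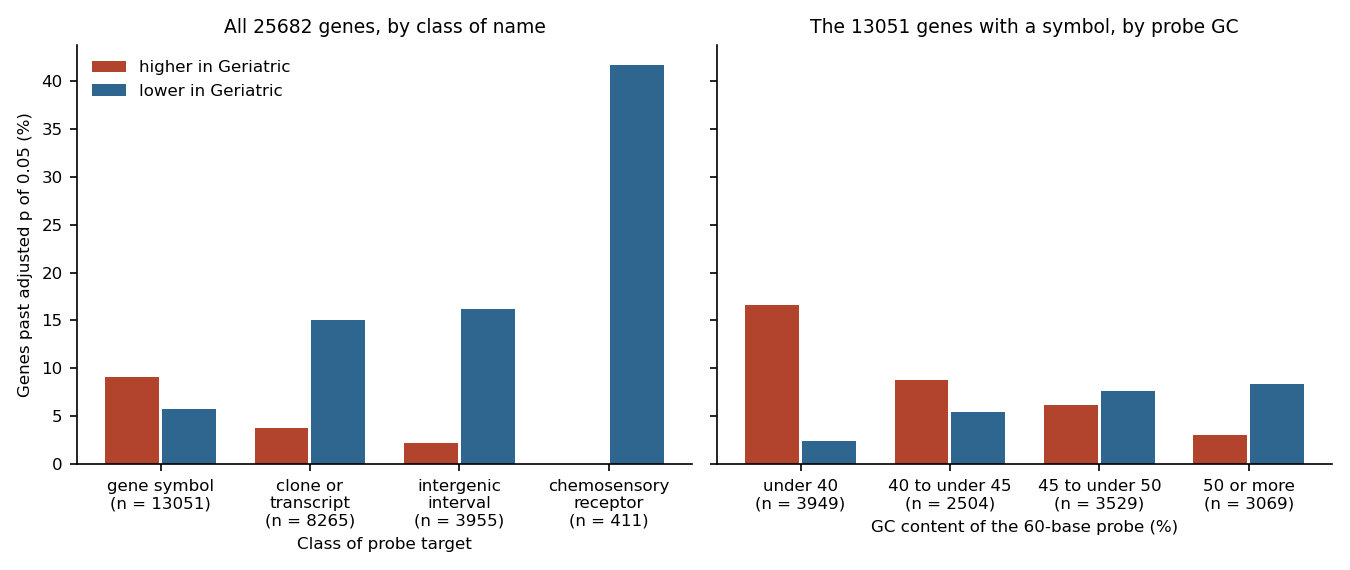
Share of genes past an adjusted p of 0.05 in each direction (y axis, %), by class of probe target (left) and, for genes with a symbol, by GC content of the probe (right). Chemosensory receptors fell in 41.6% of cases and rose in none, and the share that rose went from 16.6% for probes under 40% GC to 3.1% for probes of 50% or more.

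The calls also followed the base composition of the probe. Of genes with a symbol whose probe held under 40% G and C, 654 of 3949 rose (16.6%) and 95 fell (2.41%). At 50% or more, 95 of 3069 rose (3.1%) and 256 fell (8.34%), and the median change moved from 0.41 to -0.16 between these bins. When each array's deviation was smoothed on probe GC and subtracted, 1580 genes were higher and 2195 lower, and 1132 of the 1588 genes called higher and 2009 of the 2820 called lower kept their call. Adding the replicate number as a block to that adjustment gave 906 higher and 1569 lower. The part of probe GC, amplification or labelling in single results was not tested, so each paragraph below names, of the genes given with values, those whose call ended with this adjustment. When genes with a symbol were divided by mean signal into 3 equal parts, 11.8% rose and 4.39% fell of the 4350 in the middle part, and 9.01% rose and 8.73% fell of the 4351 dimmest. On single autosomes between 7.21% and 12% of genes with a symbol rose and between 3.94% and 9.15% fell.

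The split between directions depended on the scaling. Of all calls 36% were higher as reported, 52.5% under quantile normalization (2317 higher and 2096 lower) and 48.5% with the authors' deposited values (2367 and 2514). The median of all members was 0.06 under quantile normalization and 0.02 with the deposited values, against -0.13, so changes here are relative to the 75th percentile. Among genes with a symbol the higher calls outnumbered the lower ones under every scaling tried, with 53.4% to 75.3% of calls higher. They did not when only the 5 arrays were fitted (203 higher and 294 lower) or within slide 2 (12 and 50). Single arrays set the number of calls: 290 higher and 808 lower without Geriatric 3, 553 and 1443 without Geriatric 1, 818 and 1613 without Old 1, and 757 and 1742 without Old 2. Without Old 3 there were 1921 and 3096. Within slide 2, with 2 arrays a group, 17 of all members were higher and 300 lower. Of the 174 called genes named here, 12 kept their call within slide 2 and 169 with slide as a block over 14 arrays, and none changed direction in either. For the 12 largest rises and 12 largest falls the choice of genes required the direction within slide 2. The arrays of slide 2 are also part of the full fit.

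**Figure D2:**
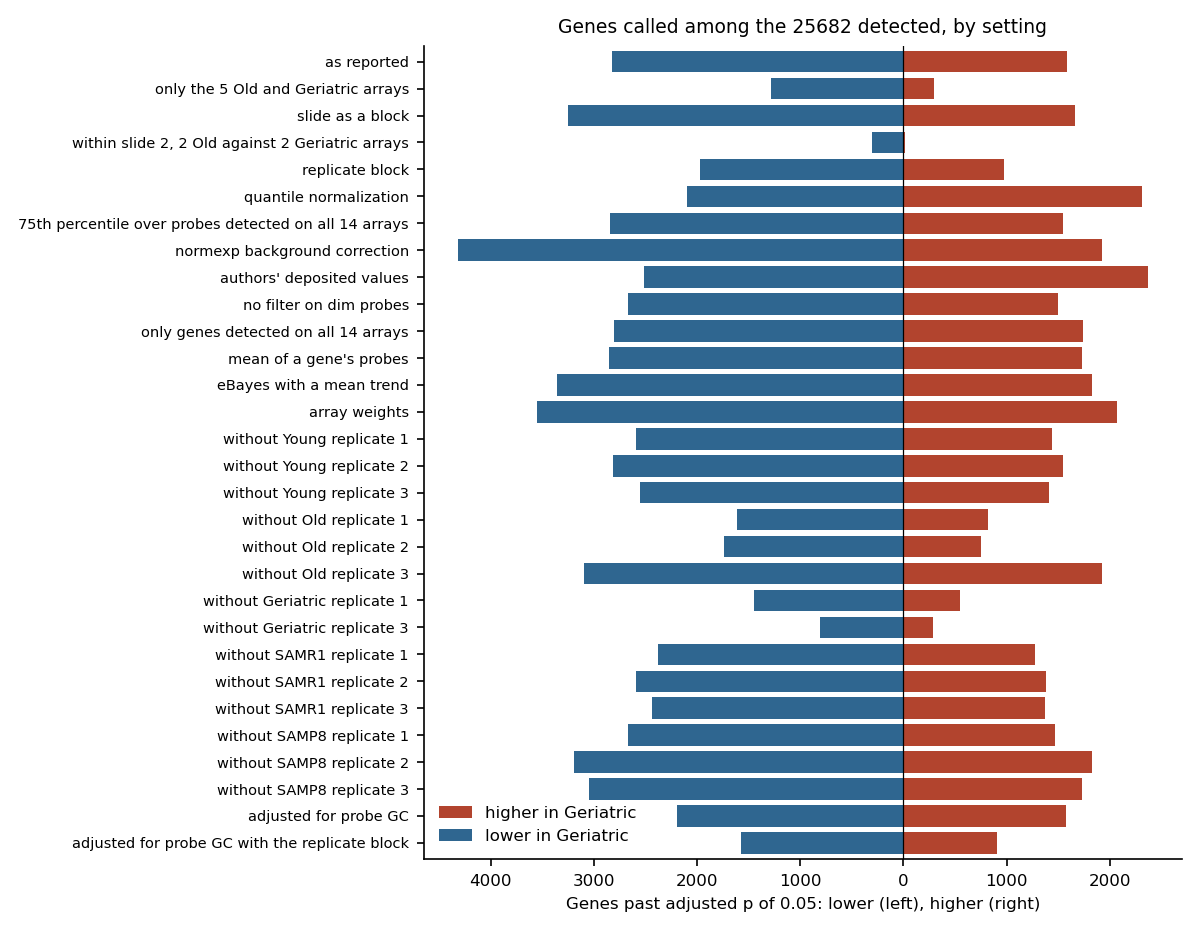
Genes past an adjusted p of 0.05 among the 25682 members (x axis, number of genes; lower in Geriatric to the left, higher to the right) under each setting (y axis). Without Geriatric 3 the bars shrank to 290 higher and 808 lower, and quantile normalization and the authors' deposited values moved the balance towards higher calls.

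For most called genes the Young arrays lay on the Old side and the SAMR1 arrays on the Geriatric side. Of the 1187 genes with a symbol that rose, the SAMR1 mean was nearer to the Geriatric than to the Old mean in 81.9% and the SAMP8 mean in 81.5%, and the Young mean was nearer to the Old mean in 62.6%. Of the 758 that fell these shares were 78.9%, 81.3% and 64.5%. They were 60.6%, 58.8% and 55.7% over the 11106 genes not called. Sex-linked transcripts also divided these groups. The mean level of Ddx3y was -7.61 ± 0.01 (SD, n = 3) in Young, -0.07 ± 0.57 (SD, n = 3) in SAMR1 and -0.05 ± 0.46 (SD, n = 3) in SAMP8 cells.

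Of the 12 largest rises 5 were of secreted and matrix proteins. Sfrp2, a secreted modulator of Wnt signalling, read -3.26, -3.30 and -3.68 on the Old and 0.00 and 0.62 on the Geriatric arrays, a change of 3.72 ± 0.62 (SE) (adjusted p = 0.0026). Wisp2, a matricellular protein now named Ccn5, read -2.73, -2.93 and -2.85 (Old) and 0.33 and 1.24 (Geriatric), so that the lowest Geriatric array lay over 3 log2 units above the highest Old one (change 3.62 ± 0.32 (SE), adjusted p = 8.84e-05). Lamc3, a laminin gamma chain of basement membranes, went from -5.20, -3.93 and -4.45 (Old) to -0.86 and 0.15 (Geriatric) (change 4.17 ± 0.43 (SE), adjusted p = 0.000207). Both probes of Col6a6, a collagen VI chain, were higher, and the brighter one read -3.19, -2.87 and -2.15 (Old) and 0.27 and 0.84 (Geriatric) (adjusted p = 0.0042). C4b, complement component C4, stood at -3.27, -1.74 and -2.97 (Old) and 0.72 and 0.78 (Geriatric) (change 3.41 ± 0.49 (SE), adjusted p = 0.0011). In these 5 genes no Old array reached a Geriatric one, which the choice of genes required.

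The other 7 rises were of regulators, enzymes and membrane proteins. Sox11, a transcription factor of developing tissue, read -5.48, -4.01 and -3.55 (Old) and -1.06 and -1.37 (Geriatric) (change 3.13 ± 0.59 (SE), adjusted p = 0.0051). Dbx1, a homeobox factor of the developing neural tube, rose by 2.86 ± 0.48 (SE) (adjusted p = 0.0028), with Geriatric readings of -0.82 and -0.83. Cyp26a1, the enzyme that breaks down retinoic acid, had the largest rise of all, 4.21 ± 1.32 (SE), with Old readings of -0.64, -3.13 and -3.54 and an adjusted p of 0.0446, or 0.0624 with slide as a block. Dab2, an endocytic adaptor, rose by 3.01 ± 0.32 (SE) (adjusted p = 0.000265). Ppp1r14a, an inhibitor of myosin phosphatase typical of smooth muscle, rose by 2.88 ± 0.31 (SE) (adjusted p = 0.000291). The summed smooth muscle and pericyte markers were lower on both Geriatric arrays than on any Old one under the scaling used here. Their median change of -0.30 was -0.03 under quantile normalization and -0.02 with the authors' deposited values, so no direction is given for them. Prima1, which anchors acetylcholinesterase in membranes, rose by 4.0 ± 0.36 (SE) (adjusted p = 9.66e-05), and Mip, a water channel of the lens, by 2.91 ± 0.59 (SE) (adjusted p = 0.0072). Cyp26a1, Col6a6 and Mip no longer passed without Geriatric 3, and Cyp26a1 without Geriatric 1, Old 2 or Old 3 (adjusted p = 0.0501 to 0.174). Cyp26a1 also lost the call without Young 3, SAMR1 1, SAMR1 2 or SAMP8 2. The probes of Sfrp2 and Wisp2 map to chr3:83577864-83577923 and chr2:163658717-163658776, those of Lamc3 and Sox11 to chr2:31801996-31802055 and chr12:28020087-28020146, and that of Cyp26a1 to chr19:37775566-37775625, in mouse build mm9 as the scanner files give it. Whether a probe lies in a coding exon or an untranslated region was not determined here.

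**Figure D3:**
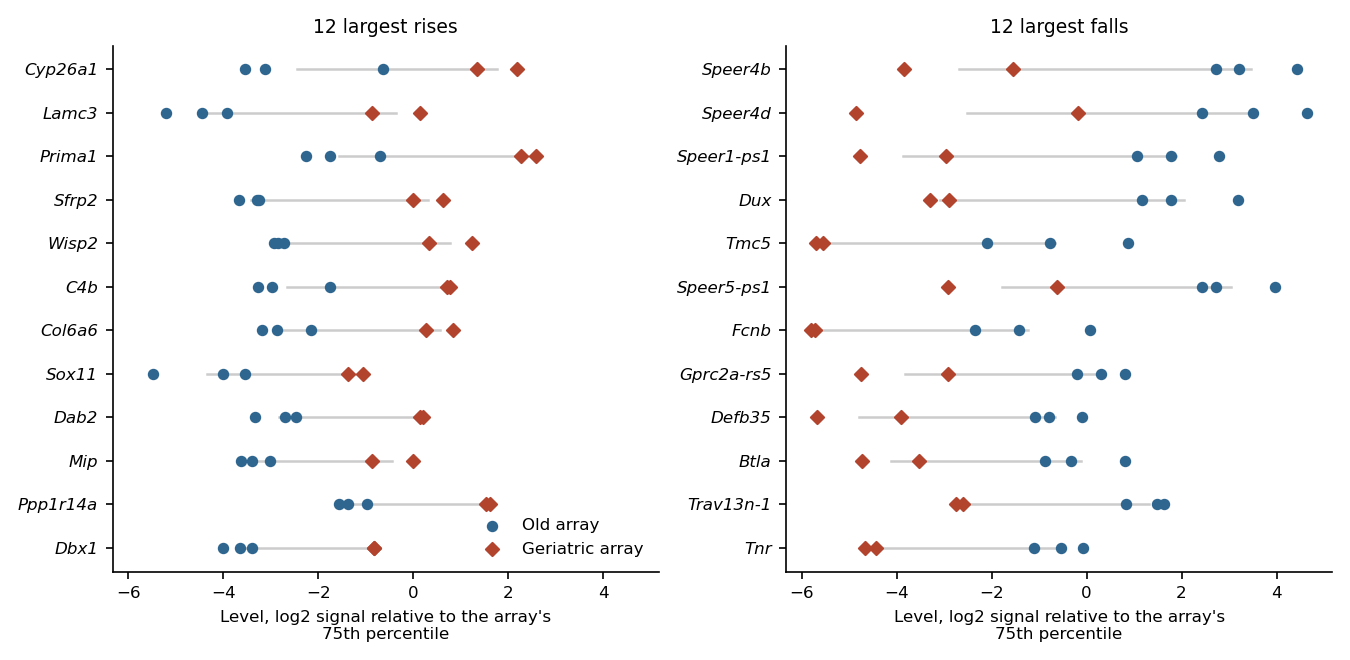
Levels (x axis, log2 signal relative to the array's 75th percentile) of the 12 genes with the largest rises (left) and the 12 with the largest falls (right) on each Old (circles) and Geriatric (diamonds) array; grey lines join the group means. In none of the 24 genes did an Old and a Geriatric array overlap, which the choice of these genes required.

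The 12 largest falls included genes of the germ line, the early embryo and immune and nerve cells. Members of the Speer family, genes of developing sperm, led: Speer4b went from 4.43, 2.73 and 3.22 (Old) to -1.54 and -3.85 (Geriatric) (change -6.16 ± 0.71 (SE), adjusted p = 0.000356), and Speer4d, Speer1-ps1 and Speer5-ps1 fell by 6.05, 5.74 and 4.82. The second probes of Speer4b and Speer4d changed by only -1.15 and -1.21 (adjusted p over probes = 0.0386 and 0.231). Their probes share runs of 20 bases with other gene names of the array, so each member's own value is uncertain. Dux, a homeobox factor of the cleavage-stage embryo, read 3.20, 1.77 and 1.16 (Old) and -2.90 and -3.29 (Geriatric) (change -5.14 ± 0.79 (SE), adjusted p = 0.0016; its second probe changed by -2.23). Tnr, tenascin-R of the nervous system matrix, fell by 3.98 ± 0.49 (SE) (adjusted p = 0.000509), with -0.08, -1.11 and -0.54 on Old and -4.67 and -4.44 on Geriatric arrays. Immune genes among the falls were Btla, an inhibitory lymphocyte receptor (change -4.0 ± 0.93 (SE), adjusted p = 0.013), Fcnb, a lectin of myeloid cells (-4.53 ± 1.17 (SE), adjusted p = 0.0208), and Defb35, a beta-defensin (-4.13 ± 0.86 (SE), adjusted p = 0.0083). Trav13n-1, a T cell receptor segment whose probe also shares bases with 2 other names, fell by 3.99 ± 0.50 (SE) (adjusted p = 0.000541). Tmc5, a channel-like membrane protein, changed by -4.97 ± 1.44 (SE) (adjusted p = 0.0335), and Gprc2a-rs5, a vomeronasal receptor pseudogene by its current symbol Vmn2r-ps54, by -4.13 ± 0.74 (SE) (adjusted p = 0.0038). Of the 758 genes with a symbol that fell, 9.37% shared such a run with another name, against 1.18% of those that rose and 3.85% of those not called. Speer4d, Speer1-ps1, Tmc5, Fcnb, Gprc2a-rs5, Defb35 and Btla no longer passed without Geriatric 3, and Tmc5 and Fcnb without Geriatric 1 or Old 1 (adjusted p = 0.0553 to 0.153). Tmc5 lost the call without Old 2, within the same range. 

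Gene lists are set against these shares over all 13051 genes with a symbol: 9.1% higher, 5.81% lower and a median change of 0.11. Of the 48 lists 9 mark cell types. They were chosen with earlier results of these data known and were not tested as sets.

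**Figure D4:**
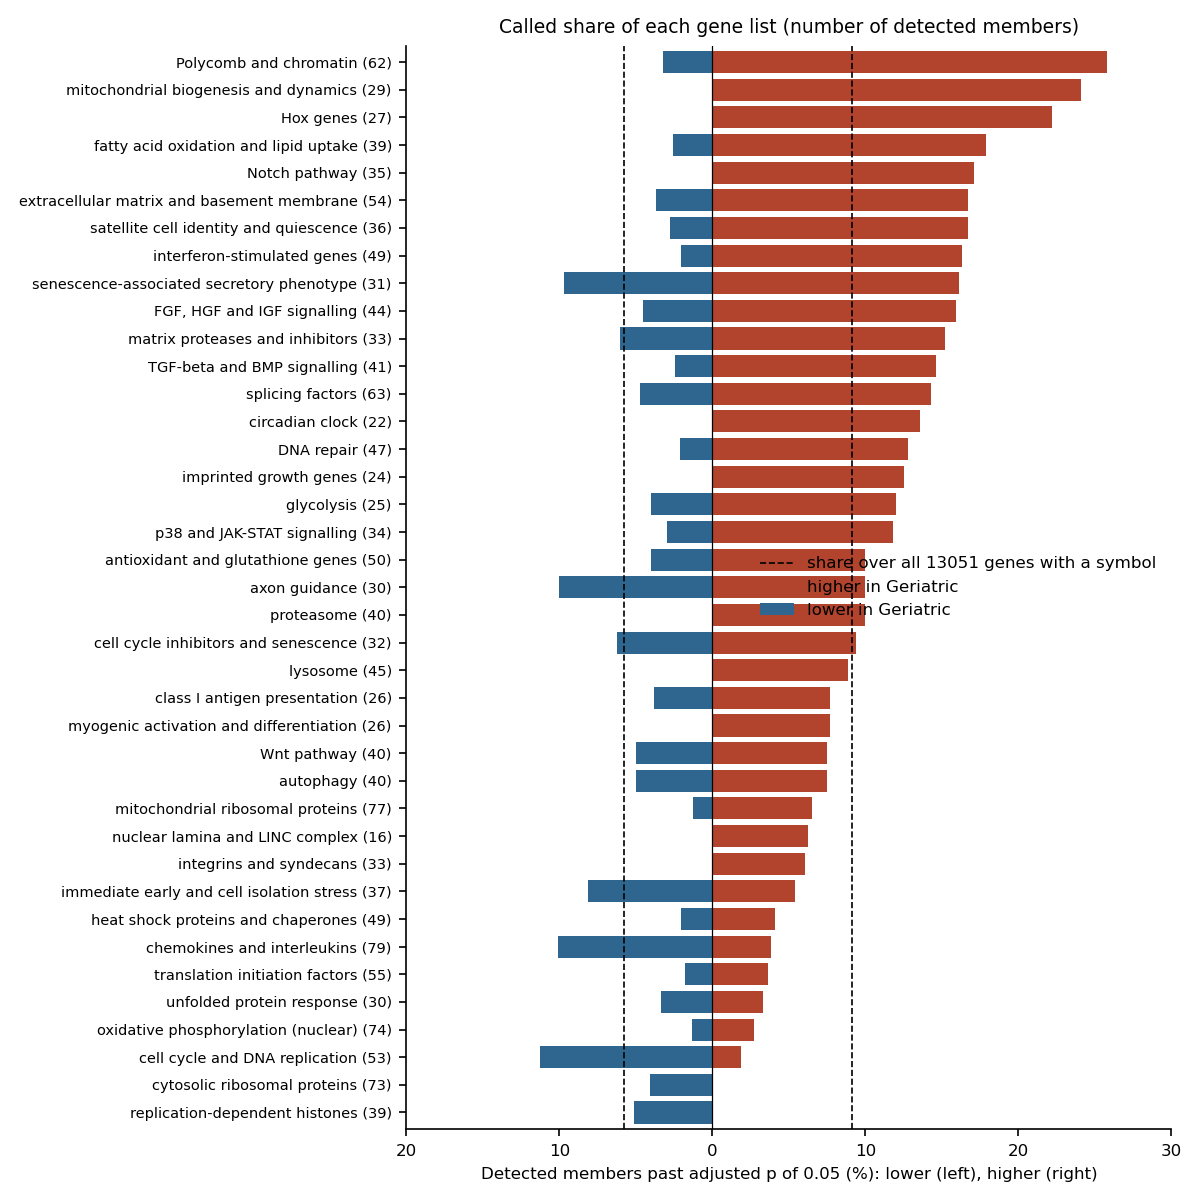
Share of each list's detected members past an adjusted p of 0.05 (x axis, %; lower in Geriatric to the left, higher to the right), with the number of detected members in brackets and the shares over all genes with a symbol as dashed lines. Polycomb and chromatin genes had 16 of 62 members higher, and cell cycle and DNA replication genes 6 of 53 lower.

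Among satellite cell identity genes, Myf5, Spry1, Peg3 and 3 Notch targets rose. Of 36 detected members of the identity and quiescence list 6 rose (16.7%) and 1 fell (2.78%), with 24 above 0 and a median change of 0.33. Myf5, a myogenic regulator already transcribed in resting satellite cells, read -5.17, -3.92 and -3.37 on the Old and -2.02 and -1.60 on the Geriatric arrays, a 5.07-fold difference (change 2.34 ± 0.43 (SE), adjusted p = 0.0043). Its probe holds 15% GC, and the change was 1.47 with the adjustment for probe GC and 3.12 under quantile normalization. Spry1, an inhibitor of receptor tyrosine kinase signalling that preserves quiescence, read 1.62, 1.16 and 2.29 (Old) and 3.37 and 3.36 (Geriatric) (change 1.68 ± 0.36 (SE), adjusted p = 0.0094). Pax7 itself read 3.70, 3.39 and 3.54 (Old) and 4.11 and 4.11 (Geriatric), which do not overlap, but its change of 0.57 ± 0.23 (SE) did not pass (adjusted p = 0.105). The antigens of the sort did not pass either: Itga7 changed by 0.35 ± 0.29 (SE) (adjusted p = 0.408) and Cd34 by 0.41 ± 0.25 (SE) (adjusted p = 0.265). Vcam1, an adhesion molecule of these cells, changed by -0.34 ± 0.22 (SE) (adjusted p = 0.282), with 1 of its 2 probes higher. Myod1, which rises on activation, changed by -0.31 ± 0.18 (SE) (adjusted p = 0.242). The member that fell was Foxo3, a transcription factor of quiescence (-1.29 ± 0.22 (SE), adjusted p = 0.0029), whose second probe changed by 0.67. Of the 26 detected genes of myogenic activation and differentiation 2 rose and 0 fell, and the receptor Cdon was among those that rose (1.10 ± 0.31 (SE), adjusted p = 0.0282). Their median change of -0.37 was -0.006 under quantile normalization and -0.015 with the authors' deposited values, so no direction is given. The identity list had 2, 3, 5, 5 and 8 members higher without Geriatric 3, Geriatric 1, Old 1, Old 2 and Old 3 in turn. Myf5, Spry1, Cdon and Peg3 no longer passed without Geriatric 3, and Spry1, Cdon and Peg3 without Geriatric 1 (adjusted p = 0.0507 to 0.189). Peg3 lost the call without Old 1, and Cdon and Peg3 without Old 2, within the same range. Peg3 also lost the call without SAMR1 1. The call of Cdon was lost with the adjustment for probe GC (adjusted p = 0.0704).

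**Figure D5:**
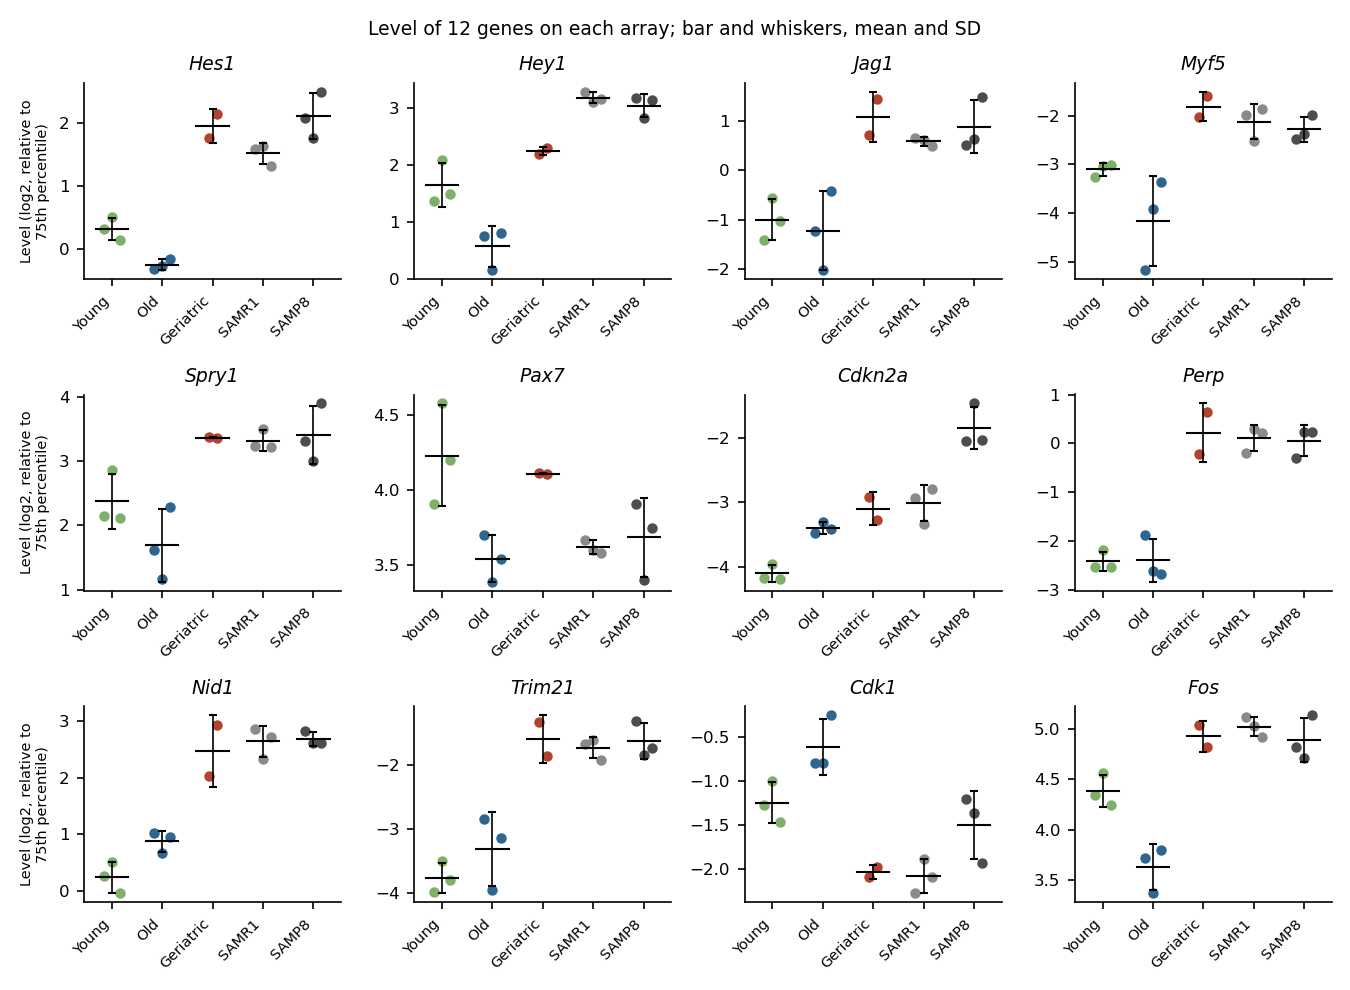
Level (y axis, log2 signal relative to the array's 75th percentile) of 12 genes on each of the 14 arrays by group (x axis); horizontal bars and whiskers give mean and SD. For Hes1, Hey1, Jag1, Myf5, Spry1, Perp, Nid1, Trim21 and Fos both Geriatric points lie above all Old points, as for Pax7 and Cdkn2a, which did not pass, and for Cdk1 below them.

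The Notch effectors Hes1, Hey1 and Heyl and the ligand Jag1 rose. Of 35 detected members of the pathway 6 rose (17.1%) and 0 fell, with a median change of 0.29. Hes1, the transcriptional repressor that Notch switches on, read -0.32, -0.27 and -0.15 on the Old and 1.77 and 2.15 on the Geriatric arrays, a 4.63-fold difference (change 2.21 ± 0.24 (SE), adjusted p = 0.000291). The related repressor Hey1 read 0.75, 0.16 and 0.81 (Old) and 2.19 and 2.29 (Geriatric) (change 1.67 ± 0.27 (SE), adjusted p = 0.0021). Jag1, a ligand, read -1.22, -2.02 and -0.41 (Old) and 0.71 and 1.44 (Geriatric) (change 2.29 ± 0.45 (SE), adjusted p = 0.0062). The probes of Hes1, Hey1 and Jag1 hold 26.7%, 35% and 36.7% GC. With the adjustment for probe GC their changes were 1.63, 1.36 and 2.07, and each still passed. The other members that rose were the repressor Heyl, the coactivator Maml1 and the protease Adam17. Hes1 was within 0.2 log2 units among the Old arrays, and its Young mean was 0.32 ± 0.18 (SD, n = 3) and its SAMR1 mean 1.52 ± 0.17 (SD, n = 3). For Hey1 the Young arrays had a mean of 1.65 ± 0.39 (SD, n = 3) and the Geriatric arrays 2.24 ± 0.07 (SD, n = 2), and the SAMR1 mean of 3.18 ± 0.09 (SD, n = 3) lay above both. The probes of Hes1, Hey1 and Jag1 map to chr16:30067820-30067879, chr3:8663432-8663491 and chr2:136907433-136907492 (mm9). The Notch list had 2, 3, 4, 4 and 8 members higher without Geriatric 3, Geriatric 1, Old 1, Old 2 and Old 3 in turn. Jag1 no longer passed without Geriatric 3 (adjusted p = 0.0752). 

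Of 53 detected cell cycle and DNA replication genes 6 fell (11.3%) and 1 rose. Cdk1, the kinase that drives mitosis, read -0.80, -0.79 and -0.25 (Old) and -2.09 and -1.97 (Geriatric) (change -1.42 ± 0.27 (SE), adjusted p = 0.0051). Mki67, the proliferation antigen Ki-67, fell by 1.55 ± 0.33 (SE) (adjusted p = 0.0087) and Mybl2, a transcription factor of dividing cells, by 2.04 ± 0.43 (SE) (adjusted p = 0.0083), with both probes of each lower. The other members that fell were Pole, Ccne1 and Ccnd2, and Rfc1, a replication factor, rose by 0.91 ± 0.24 (SE) (adjusted p = 0.0226). The list's median change was 0.08, and it was negative with normexp background correction, within slide 2 and with the adjustment for probe GC, so the other members showed no settled direction. The cell cycle list had 2, 5, 5, 5 and 6 members lower without Geriatric 3, Geriatric 1, Old 1, Old 2 and Old 3 in turn.

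To show the sequence before 2 of these genes, the RefSeq promoters of Cdk1 and Mki67 (build GRCm38.p6, 250 bases before to 50 after the start, 5′ to 3′ along the gene) are given with each CCAAT box in capitals, read on either strand as CCAAT or ATTGG.
Cdk1, chr10:69352863-69353162, minus strand: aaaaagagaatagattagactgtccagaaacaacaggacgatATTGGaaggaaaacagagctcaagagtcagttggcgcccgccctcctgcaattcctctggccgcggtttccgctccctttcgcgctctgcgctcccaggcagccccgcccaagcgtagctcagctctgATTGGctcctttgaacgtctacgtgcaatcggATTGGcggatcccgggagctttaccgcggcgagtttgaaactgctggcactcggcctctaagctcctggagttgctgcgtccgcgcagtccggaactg
Mki67, chr7:135716330-135716629, minus strand: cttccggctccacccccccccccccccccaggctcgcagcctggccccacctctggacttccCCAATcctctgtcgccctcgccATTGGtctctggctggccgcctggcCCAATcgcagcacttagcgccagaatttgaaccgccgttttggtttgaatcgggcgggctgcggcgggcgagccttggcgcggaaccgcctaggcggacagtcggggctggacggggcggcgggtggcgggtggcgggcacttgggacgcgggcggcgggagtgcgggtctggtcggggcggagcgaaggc
Each holds 3 CCAAT boxes. The letters CCAAT occur on either strand in 37.4% of the 32851 promoters of the table, in 2 of the 4 genes of the list that fell and have a promoter there, and in 26 of 38 not called. The promoter of Rfc1, the member that rose, holds 2 of these boxes. Mybl2 and Rfc1 no longer passed without Geriatric 3, and Mki67 and Rfc1 without Geriatric 1 (adjusted p = 0.0537 to 0.158). Rfc1 lost the call without Old 1 or Old 2, within the same range. 

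Of 32 detected cell cycle inhibitors and senescence genes 3 rose (9.38%) and 2 fell (6.25%), which is near the shares over all genes with a symbol. Cdkn2a, which encodes the p16 and p19 inhibitors, read -3.48, -3.30 and -3.42 on the Old and -2.92 and -3.28 on the Geriatric arrays, and its change of 0.30 ± 0.24 (SE) did not pass (adjusted p = 0.395). Under quantile normalization the change was 0.90 and passed (adjusted p = 0.0327), and with normexp background correction it was -0.01 (adjusted p = 0.984). Its neighbour Cdkn2b changed by -0.88 ± 0.31 (SE) (adjusted p = 0.0683) and Cdkn1a, the p21 inhibitor, by -1.72 ± 0.57 (SE) (adjusted p = 0.0528). The second probe of Cdkn2b changed by -0.08. With the adjustment for probe GC Cdkn2b passed, as lower (adjusted p = 0.0238). Cdkn1a passed, as lower, under 10 of 29 alternatives, among them slide as a block (adjusted p = 0.016) and the authors' deposited values (adjusted p = 0.0494), but not with the adjustment for probe GC (adjusted p = 0.121). Perp, a membrane protein induced by p53, read -1.89, -2.62 and -2.67 (Old) and -0.22 and 0.64 (Geriatric), a 6.1-fold rise (2.61 ± 0.33 (SE), adjusted p = 0.000561). Cdkn2c, the p18 inhibitor, rose by 2.16 ± 0.56 (SE) (adjusted p = 0.0204) and the lamin Lmnb1, which is lost in senescent cells, by 0.91 ± 0.25 (SE) (adjusted p = 0.0265). The stress genes Sesn2 (-1.27 ± 0.31 (SE), adjusted p = 0.0171) and Plk2 (-1.59 ± 0.50 (SE), adjusted p = 0.0446) fell. The inhibitor list had 1, 2, 1, 1 and 4 members higher without Geriatric 3, Geriatric 1, Old 1, Old 2 and Old 3 in turn. Cdkn2c, Lmnb1, Sesn2 and Plk2 no longer passed without Geriatric 3 or Old 2, and Cdkn2c, Sesn2 and Plk2 without Geriatric 1 (adjusted p = 0.0525 to 0.262). Cdkn2c, Lmnb1 and Plk2 lost the call without Old 1, and Plk2 without Old 3, within the same range. Plk2 also lost the call without Young 3, SAMR1 1, SAMR1 2, SAMR1 3 or SAMP8 2. 

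Secreted factors of senescent cells went both ways. Of 31 detected members of the senescence-associated secretory list 5 rose (16.1%) and 3 fell (9.68%), with a median change of -0.01 that was 0.24 under quantile normalization. Serpine2, a protease inhibitor, read -1.06, -1.31 and -1.06 (Old) and 1.05 and 1.05 (Geriatric) (change 2.20 ± 0.26 (SE), adjusted p = 0.000394). The insulin-like growth factor binding proteins Igfbp7 and Igfbp5 rose by 1.49 ± 0.41 (SE) (adjusted p = 0.0277) and 1.73 ± 0.49 (SE) (adjusted p = 0.0297). Il6 fell by 1.40 ± 0.42 (SE) (adjusted p = 0.0382), as did the chemokine Ccl8 (-1.29 ± 0.40 (SE), adjusted p = 0.0429) and Igfbp2 (-1.34 ± 0.40 (SE), adjusted p = 0.0384), whose second probe changed by 0.16. The secretory list had 1, 3, 2, 1 and 7 members higher without Geriatric 3, Geriatric 1, Old 1, Old 2 and Old 3 in turn, 2 with the adjustment for probe GC and 1 with that adjustment and the replicate block. It had 0, 1, 0, 0 and 3 members lower in the same order. Igfbp7, Igfbp5, Il6, Ccl8 and Igfbp2 no longer passed without Geriatric 3, Old 1 or Old 2, and Igfbp5, Il6 and Ccl8 without Geriatric 1 (adjusted p = 0.0511 to 0.281). Il6 lost the call without Old 3, within the same range. Il6 and Igfbp2 also lost the call without SAMR1 3. Ccl8 also lost the call without Young 1, Young 3 or SAMR1 3. The calls of Igfbp7, Ccl8 and Igfbp2 were lost with the adjustment for probe GC (adjusted p = 0.156, 0.0724 and 0.0563, in that order). Il6 and Ccl8 lost theirs under quantile normalization (adjusted p = 0.217 and 0.177) and with the authors' deposited values (adjusted p = 0.245 and 0.214).

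Immediate early genes, which tissue dissociation induces within minutes, had called members in both directions. Of 37 detected members 2 rose (5.41%) and 3 fell (8.11%), near the shares over all genes with a symbol. Under quantile normalization 5 rose and 2 fell, and with the authors' deposited values 5 rose and 4 fell. Fos, an AP-1 subunit, read 3.72, 3.37 and 3.8 on the Old and 5.04 and 4.82 on the Geriatric arrays (change 1.30 ± 0.21 (SE), adjusted p = 0.0023), and Egr1 rose by 0.71 ± 0.20 (SE) (adjusted p = 0.0309). Fosl1, another AP-1 subunit, fell by 3.48 ± 0.67 (SE) (adjusted p = 0.0056), from -0.56, 0.50 and 0.71 (Old) to -2.56 and -3.95 (Geriatric), and Fosl2 fell by 0.73 ± 0.18 (SE) (adjusted p = 0.0196). The second probe of Fosl2 changed by -0.07. Nr4a2, an orphan nuclear receptor, read 2.24, 1.55 and 1.90 (Old) and 0.62 and 0.32 (Geriatric) (-1.42 ± 0.23 (SE), adjusted p = 0.0023). The immediate early list had 1, 3, 2, 4 and 3 members lower without Geriatric 3, Geriatric 1, Old 1, Old 2 and Old 3 in turn. Egr1, Fosl1 and Fosl2 no longer passed without Geriatric 3, and Egr1 and Fosl2 without Geriatric 1 (adjusted p = 0.061 to 0.184). Fosl2 lost the call without Old 1, and Egr1 without Old 2, within the same range. The calls of Egr1 and Fosl2 were lost with the adjustment for probe GC (adjusted p = 0.173 and 0.203, in that order).

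Of 44 detected genes of FGF, HGF and IGF signalling 7 rose (15.9%) and 2 fell (4.55%). The ligands Fgf7, Fgf10, Fgf18 and Hgf were not detected on all 5 arrays and are not counted here. The receptor Igf1r read -1.05, -1.21 and -0.68 (Old) and -0.03 and 0.22 (Geriatric) (change 1.07 ± 0.28 (SE), adjusted p = 0.0207), and Tsc1, a brake on mTOR, rose by 0.98 ± 0.23 (SE) (adjusted p = 0.013). The adaptor Irs2 fell by 1.08 ± 0.20 (SE) (adjusted p = 0.0046), and Irs1 and the inhibitor Spred2 were the remaining members that rose beside Spry1, Igfbp5 and Igfbp7. Of 41 TGF-beta and BMP genes 6 rose (14.6%) and 1 fell. Tgfbr2, the type II receptor, read -0.61, -1.23 and -0.65 (Old) and 0.75 and 0.38 (Geriatric) (change 1.39 ± 0.26 (SE), adjusted p = 0.0044), with both probes higher. Acvr2a, an activin receptor, rose by 1.08 ± 0.25 (SE) (adjusted p = 0.014) and Id1, a target of BMP signals, by 0.98 ± 0.21 (SE) (adjusted p = 0.0084). Smad1 fell by 0.78 ± 0.20 (SE) (adjusted p = 0.0218), although 1 of its 3 probes changed by 0.58. The FGF, HGF and IGF list had 0, 2, 2, 3 and 10 members higher without Geriatric 3, Geriatric 1, Old 1, Old 2 and Old 3 in turn, 5 with the adjustment for probe GC and 1 with that adjustment and the replicate block. The TGF-beta and BMP list had 2, 3, 3, 4 and 6 members higher in the same order, 5 with the adjustment for probe GC and 1 with that adjustment and the replicate block. Igf1r, Tsc1, Irs2, Acvr2a and Smad1 no longer passed without Geriatric 3, and Igf1r, Tsc1, Id1 and Smad1 without Geriatric 1 (adjusted p = 0.0557 to 0.148). Igf1r lost the call without Old 1, and Igf1r and Smad1 without Old 2, within the same range. The calls of Id1 and Smad1 were lost with the adjustment for probe GC (adjusted p = 0.209 and 0.157, in that order).

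Of 40 detected Wnt genes 3 rose (7.5%) and 2 fell (5%), near the shares over all genes with a symbol. Beside Sfrp2 the receptors Fzd1 (1.85 ± 0.46 (SE), adjusted p = 0.0169) and Fzd4 (0.90 ± 0.25 (SE), adjusted p = 0.0276) rose, and Rspo3, which amplifies Wnt signals (-1.18 ± 0.30 (SE), adjusted p = 0.0186), and the coactivator Bcl9l (-1.15 ± 0.30 (SE), adjusted p = 0.021) fell. Among 34 genes of p38 and JAK-STAT signalling 4 rose and 1 fell. Mapk14, the p38 alpha kinase, read 0.77, 0.71 and 0.97 (Old) and 1.81 and 1.81 (Geriatric) (change 0.99 ± 0.22 (SE), adjusted p = 0.0107), with its second probe at 0.17. Its substrate kinase Mapkapk5 rose by 1.2 ± 0.27 (SE) (adjusted p = 0.0103), and the STAT inhibitor Pias3 by 0.95 ± 0.20 (SE) (adjusted p = 0.0089). The second probe of Pias3 changed by 0.09. Osm, a cytokine that acts through STAT3, fell by 2.19 ± 0.56 (SE) (adjusted p = 0.0194). The Wnt list had 1, 2, 1, 1 and 6 members higher without Geriatric 3, Geriatric 1, Old 1, Old 2 and Old 3 in turn. The p38 and JAK-STAT list had 2, 1, 4, 3 and 3 members higher in the same order. Fzd1, Fzd4, Rspo3, Bcl9l, Mapk14 and Osm no longer passed without Geriatric 3, and Fzd1, Rspo3, Mapk14, Mapkapk5 and Pias3 without Geriatric 1 (adjusted p = 0.0544 to 0.223). Fzd1, Fzd4, Rspo3, Bcl9l and Osm lost the call without Old 1, and Fzd1, Fzd4, Bcl9l and Osm without Old 2, within the same range. The call of Bcl9l was lost with the adjustment for probe GC (adjusted p = 0.0839). That of Rspo3 was lost under quantile normalization (adjusted p = 0.229) and with the authors' deposited values (adjusted p = 0.352).

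Both nidogens and several other basement membrane genes rose. Of 54 detected matrix genes 9 rose (16.7%) and 2 fell (3.7%), with a median change of 0.25. Nid1, a nidogen that links laminin to collagen IV, read 1.02, 0.67 and 0.95 on the Old and 2.03 and 2.93 on the Geriatric arrays, with all 3 probes higher (change 1.60 ± 0.29 (SE), adjusted p = 0.0038). Its relative Nid2 read -1.77, -2.51 and -1.24 (Old) and -0.48 and 0.24 (Geriatric) (change 1.72 ± 0.40 (SE), adjusted p = 0.0126), and Tnxb, a tenascin, rose by 1.03 ± 0.25 (SE) (adjusted p = 0.0163). The laminin chains Lama5 and Lamc1, Col18a1, Fbn1, Thbs2 and Spock2 were the other members that rose. Spock1, a matrix proteoglycan, fell by 2.82 ± 0.72 (SE) (adjusted p = 0.0199) and Col4a3, a collagen IV chain, by 1.49 ± 0.45 (SE) (adjusted p = 0.0393). Of 33 matrix proteases and inhibitors 5 rose and 2 fell. Timp3, an inhibitor of metalloproteases bound to the matrix, rose by 1.03 ± 0.24 (SE) (adjusted p = 0.0141) and the protease Adamts15 by 1.61 ± 0.44 (SE) (adjusted p = 0.0271), whereas Serpinf1 (-1.61 ± 0.34 (SE), adjusted p = 0.0086) and Adamts4 (-1.12 ± 0.28 (SE), adjusted p = 0.018) fell. The matrix list had 1, 5, 3, 3 and 13 members higher without Geriatric 3, Geriatric 1, Old 1, Old 2 and Old 3 in turn, 8 with the adjustment for probe GC and 5 with that adjustment and the replicate block. The protease list had 1, 2, 2, 2 and 7 members higher in the same order. Of 17 detected mesenchymal markers the fibroblast genes Scara5 (1.65 ± 0.34 (SE), adjusted p = 0.0073), Dpt (1.05 ± 0.30 (SE), adjusted p = 0.0325) and Pdgfrl (0.73 ± 0.24 (SE), adjusted p = 0.0492) rose. Cxcl14 (-1.87 ± 0.35 (SE), adjusted p = 0.0049) and the surface antigen Thy1 (-2.26 ± 0.55 (SE), adjusted p = 0.0156) fell, the latter 4.8-fold. The summed level of the 17 markers was 76.2 to 110 on Old and 76.1 to 114 on Geriatric arrays, relative to the 75th percentile. Nid1, Nid2, Tnxb, Col4a3, Timp3, Adamts15, Adamts4, Dpt, Pdgfrl, Thy1 and Cxcl14 no longer passed without Geriatric 3, and Tnxb, Spock1, Col4a3, Adamts15, Serpinf1, Scara5, Dpt and Pdgfrl without Geriatric 1 (adjusted p = 0.0507 to 0.305). Spock1, Col4a3, Adamts15, Dpt and Pdgfrl lost the call without Old 1, Tnxb, Adamts15, Adamts4, Dpt and Pdgfrl without Old 2, and Col4a3 and Pdgfrl without Old 3, within the same range. Col4a3 also lost the call without Young 1, SAMR1 1, SAMR1 2 or SAMR1 3. Pdgfrl also lost the call without Young 1, Young 3, SAMR1 1, SAMR1 2, SAMR1 3 or SAMP8 1. The call of Col4a3 was lost with the adjustment for probe GC (adjusted p = 0.0665).

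Adhesion and guidance receptors changed singly. Of 33 integrins and syndecans 2 rose, Itga8, the integrin alpha 8 chain (1.85 ± 0.35 (SE), adjusted p = 0.0054), and the tetraspanin Cd9 (0.90 ± 0.24 (SE), adjusted p = 0.0216). Of 30 axon guidance genes 3 rose and 3 fell. Epha4, an ephrin receptor, read -3.45, -4.67 and -4.93 (Old) and -1.90 and -1.27 (Geriatric) (change 2.76 ± 0.70 (SE), adjusted p = 0.0194), and Ntn4, a netrin, rose by 1.64 ± 0.36 (SE) (adjusted p = 0.0101) and Plxna2 by 1.01 ± 0.24 (SE) (adjusted p = 0.0136). Sema3a, a secreted semaphorin, read -1.01, -0.92 and -0.50 (Old) and -3.04 and -3.81 (Geriatric) (change -2.62 ± 0.47 (SE), adjusted p = 0.0038), and the ephrin Efna5 (-2.26 ± 0.56 (SE), adjusted p = 0.0179) and the netrin receptor Dcc (-0.89 ± 0.22 (SE), adjusted p = 0.0159) fell. The guidance list had 0, 0, 3, 2 and 4 members higher without Geriatric 3, Geriatric 1, Old 1, Old 2 and Old 3 in turn. It had 0, 1, 3, 1 and 3 members lower in the same order. Itga8, Cd9, Epha4, Ntn4, Plxna2, Sema3a, Efna5 and Dcc no longer passed without Geriatric 3, and Epha4, Ntn4, Plxna2, Efna5 and Dcc without Geriatric 1 (adjusted p = 0.0508 to 0.182). Cd9 lost the call without Old 1, and Cd9, Epha4, Efna5 and Dcc without Old 2, within the same range. The call of Cd9 was lost with the adjustment for probe GC (adjusted p = 0.0604).

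Among interferon-stimulated genes Samhd1, Trim21 and Parp12 rose, as did 5 others. Of 49 detected members 8 rose (16.3%) and 1 fell (2.04%), with a median change of 0.36. Samhd1, which destroys the nucleotides that viruses need, read -2.16, -2.37 and -1.48 (Old) and -0.32 and -0.52 (Geriatric) (change 1.58 ± 0.25 (SE), adjusted p = 0.0019), with its second probe at 0.215. Trim21, an antibody receptor of the cytosol, read -2.84, -3.96 and -3.13 (Old) and -1.33 and -1.86 (Geriatric), a 3.28-fold rise (1.71 ± 0.33 (SE), adjusted p = 0.0052), and Parp12, an antiviral ADP-ribosyltransferase, rose by 1.69 ± 0.33 (SE) (adjusted p = 0.0062), or by 1.02 with the adjustment for probe GC. The other members that rose were Gbp7, Ifit3, Irf1, Parp14 and Dtx3l, and Irf8, a transcription factor of myeloid cells, fell by 1.18 ± 0.27 (SE) (adjusted p = 0.0118). Of 26 genes of class I antigen presentation 2 rose, the peptide transporter Tap2 (1.41 ± 0.30 (SE), adjusted p = 0.0092) and the immunoproteasome subunit Psmb8 (1.12 ± 0.30 (SE), adjusted p = 0.0245), and H2-Q1, a nonclassical class I gene, fell by 2.52 ± 0.46 (SE) (adjusted p = 0.004). Class I genes are near copies of each other, so the value of a single member is uncertain. Of 79 chemokines and interleukins 3 rose (3.8%) and 8 fell (10.1%), with a median change of -0.49. Under quantile normalization 5 rose and 3 fell, with a median of -0.002. With the authors' deposited values 6 rose and 6 fell, with a median of -0.13, so the excess of falls depended on the scaling. Cxcr6 rose by 1.39 ± 0.26 (SE) (adjusted p = 0.0046), Il17rd by 1.48 ± 0.31 (SE) (adjusted p = 0.0084) and the eosinophil-attracting Ccl11 by 1.99 ± 0.57 (SE) (adjusted p = 0.0329), and Cxcl14 (-1.87 ± 0.35 (SE), adjusted p = 0.0049) and Il31ra (-2.13 ± 0.43 (SE), adjusted p = 0.0073) were among those that fell. The interferon list had 4, 3, 5, 4 and 11 members higher without Geriatric 3, Geriatric 1, Old 1, Old 2 and Old 3 in turn. The chemokine list had 1, 1, 3, 2 and 4 members higher in the same order. It had 0, 6, 5, 3 and 8 members lower in the same order. Irf8, Psmb8, Il17rd, Ccl11, Cxcl14 and Il31ra no longer passed without Geriatric 3, and Tap2, Psmb8, Il17rd and Ccl11 without Geriatric 1 (adjusted p = 0.0507 to 0.178). Psmb8 and Ccl11 lost the call without Old 2, within the same range. The call of Ccl11 was lost with the adjustment for probe GC (adjusted p = 0.0663).

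The interferon-stimulated response element, searched on both strands as GAAA, any 2 bases and GAAA again, is shown for Trim21, whose promoter holds it after the start site, in 2 overlapping copies marked by capitals (RefSeq, GRCm38.p6).
Trim21, chr7:102565433-102565732, minus strand: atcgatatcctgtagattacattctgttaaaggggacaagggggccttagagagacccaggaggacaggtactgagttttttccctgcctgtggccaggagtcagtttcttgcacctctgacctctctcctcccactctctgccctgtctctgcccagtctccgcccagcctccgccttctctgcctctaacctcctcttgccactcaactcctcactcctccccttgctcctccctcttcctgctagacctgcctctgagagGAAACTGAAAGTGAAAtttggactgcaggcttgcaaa
The element occurred in 3.44% of the 32851 promoters of the table. It lay in 3 of the 7 members that rose and have a promoter there (Trim21, Ifit3 and Gbp7) and in 18 of the 29 not called. Of the 13051 genes with a symbol 10259 have a promoter in the table, under 80%, so no share of a motif over the called genes is given.

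As reported, the Polycomb and chromatin list, which also holds sirtuins of mitochondria, had the largest share of rises among the 48 lists. The next shares were close, 24.1% for mitochondrial biogenesis and dynamics and 22.2% for Hox genes. The rank without the mitochondrial sirtuins was not determined. Of 62 detected Polycomb and chromatin genes 16 rose (25.8%) and 2 fell (3.23%), with a median change of 0.52. Phf1, a cofactor of Polycomb repressive complex 2, read -2.16, -2.48 and -2.08 (Old) and -0.61 and -0.96 (Geriatric), with both probes higher (change 1.45 ± 0.24 (SE), adjusted p = 0.0026). Hdac3, a histone deacetylase, read -2.12, -2.73 and -1.99 (Old) and -1.2 and -0.72 (Geriatric) (change 1.32 ± 0.27 (SE), adjusted p = 0.0075), and Sirt4, a sirtuin of mitochondria, rose by 1.11 ± 0.22 (SE) (adjusted p = 0.0067). The sirtuins Sirt3 and Sirt5, which act in mitochondria, rose too. Polycomb subunits among the other members that rose were Eed, Cbx7, Bmi1, Pcgf1, Phc3 and Mtf2. Suv39h2, a histone H3 lysine 9 methyltransferase, fell by 0.59 ± 0.18 (SE) (adjusted p = 0.037) and Hdac7 by 0.80 ± 0.26 (SE) (adjusted p = 0.0492). The second probe of Suv39h2 changed by -0.19. Under quantile normalization and with the authors' deposited values 20 and 21 rose and 0 fell, and the change of Suv39h2 was 0.02 with the latter. The chromatin list had 3, 5, 10, 9 and 15 members higher without Geriatric 3, Geriatric 1, Old 1, Old 2 and Old 3 in turn, 10 with the adjustment for probe GC and 8 with that adjustment and the replicate block. Hdac3, Suv39h2 and Hdac7 no longer passed without Geriatric 3, and Sirt4, Suv39h2 and Hdac7 without Geriatric 1 (adjusted p = 0.0512 to 0.296). Suv39h2 and Hdac7 lost the call without Old 1 or Old 2, within the same range. Suv39h2 also lost the call without SAMR1 1 or SAMR1 3. Hdac7 also lost the call without Young 1, Young 2, Young 3, SAMR1 1, SAMR1 2, SAMR1 3, SAMP8 1 or SAMP8 3. The calls of Suv39h2 and Hdac7 were lost with the adjustment for probe GC (adjusted p = 0.119 and 0.0511, in that order).

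Hox genes, splicing factors and imprinted genes had rises in each list. Of 27 detected Hox genes, which keep a cell's position along the body axis, 6 rose (22.2%) and 0 fell, with a median change of 0.56. Hoxa6 read -0.40, -0.61 and -0.28 (Old) and 0.50 and 0.61 (Geriatric) (change 0.99 ± 0.18 (SE), adjusted p = 0.004). Hoxc10 (0.92 ± 0.20 (SE), adjusted p = 0.0107) and Hoxc4 (1.17 ± 0.27 (SE), adjusted p = 0.0137) rose, as did Hoxc5, Hoxc6 and Hoxa3. Of 63 splicing factors 9 rose (14.3%) and 3 fell. Hnrnpu, which binds nuclear RNA, rose by 1.0 ± 0.23 (SE) (adjusted p = 0.0113) and Srsf4 by 1.39 ± 0.28 (SE) (adjusted p = 0.0072). Ptbp1, which represses exons, fell by 0.66 ± 0.18 (SE) (adjusted p = 0.0234), with its second probe at 0.14. Of 24 imprinted growth genes 3 rose, Peg3 (0.94 ± 0.28 (SE), adjusted p = 0.0351), Zim1 (1.03 ± 0.31 (SE), adjusted p = 0.0364) and Mest (1.58 ± 0.48 (SE), adjusted p = 0.04). Of 39 replication-dependent histone genes 0 rose and 2 fell, the variant H2afx and Hist2h2be (-1.03 ± 0.32 (SE), adjusted p = 0.0449), with a median change of -0.74 that stayed negative under every scaling tried. The call of Hist2h2be was lost without any 1 of 11 of the 14 arrays, with slide as a block (adjusted p = 0.0512), under quantile normalization (adjusted p = 0.134) and with the authors' deposited values (adjusted p = 0.0909). Of 16 lamina and LINC complex genes Lmnb1 alone passed, whereas 5 rose and 1 fell with the adjustment for probe GC. The Hox list had 1, 3, 5, 3 and 4 members higher without Geriatric 3, Geriatric 1, Old 1, Old 2 and Old 3 in turn, 4 with the adjustment for probe GC and 2 with that adjustment and the replicate block. The splicing list had 1, 2, 4, 2 and 14 members higher in the same order, 7 with the adjustment for probe GC and 3 with that adjustment and the replicate block. It had 0, 0, 0, 0 and 3 members lower in the same order, 0 with the adjustment for probe GC and 0 with that adjustment and the replicate block. The imprinted list had 0, 0, 0, 0 and 4 members higher in the same order, 1 with the adjustment for probe GC and 1 with that adjustment and the replicate block. Hoxc10, Hoxc4, Hnrnpu, Ptbp1, Peg3, Zim1, Mest, Hist2h2be, H2afx and Lmnb1 no longer passed without Geriatric 3, and Hoxc10, Hoxc4, Srsf4, Ptbp1, Peg3, Zim1, Mest and Hist2h2be without Geriatric 1 (adjusted p = 0.0501 to 0.28). Ptbp1, Peg3, Zim1, Mest and Lmnb1 lost the call without Old 1, Ptbp1, Peg3, Zim1, Mest, Hist2h2be and Lmnb1 without Old 2, and Hist2h2be without Old 3, within the same range. Peg3 and Zim1 also lost the call without SAMR1 1. Mest also lost the call without Young 1, SAMR1 1 or SAMR1 3. Hist2h2be also lost the call without Young 1, Young 2, Young 3, SAMR1 1, SAMR1 2, SAMP8 1 or SAMP8 3. The calls of Ptbp1, Zim1, Mest and Hist2h2be were lost with the adjustment for probe GC (adjusted p = 0.175, 0.095, 0.0596 and 0.0873, in that order).

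Of 29 detected genes of mitochondrial biogenesis and dynamics 7 rose (24.1%) and 0 fell, and 24 of the 29 had a change above 0. Pink1, the kinase that marks damaged mitochondria for removal, read 1.18, 1.14 and 1.26 (Old) and 2.43 and 2.41 (Geriatric) (change 1.22 ± 0.22 (SE), adjusted p = 0.0037). Bnip3, a mitophagy receptor, rose by 1.19 ± 0.32 (SE) (adjusted p = 0.0246) and Polg2, a subunit of the mitochondrial DNA polymerase, by 1.01 ± 0.23 (SE) (adjusted p = 0.0108). Of 39 genes of fatty acid oxidation and lipid uptake 7 rose (17.9%) and 1 fell, with a median change of 0.51. Lpl, the lipase that releases fatty acids from lipoproteins, read -0.27, -0.64 and -0.56 (Old) and 1.04 and 0.88 (Geriatric), with both probes higher (change 1.44 ± 0.25 (SE), adjusted p = 0.0031). Abcg1, a cholesterol exporter, rose by 1.61 ± 0.38 (SE) (adjusted p = 0.0133) and Hadha, an enzyme of fatty acid oxidation, by 1.27 ± 0.34 (SE) (adjusted p = 0.024), whereas Cpt1b, which carries fatty acids into muscle mitochondria, fell by 0.75 ± 0.21 (SE) (adjusted p = 0.0306). The mitochondrial upkeep list had 1, 2, 3, 2 and 9 members higher without Geriatric 3, Geriatric 1, Old 1, Old 2 and Old 3 in turn, 5 with the adjustment for probe GC and 1 with that adjustment and the replicate block. The lipid list had 1, 2, 2, 3 and 6 members higher in the same order, 7 with the adjustment for probe GC and 4 with that adjustment and the replicate block. Bnip3, Polg2, Abcg1, Hadha and Cpt1b no longer passed without Geriatric 3, and Polg2, Abcg1 and Hadha without Geriatric 1 (adjusted p = 0.054 to 0.247). Hadha and Cpt1b lost the call without Old 1, and Bnip3, Hadha and Cpt1b without Old 2, within the same range. The calls of Polg2 and Cpt1b were lost with the adjustment for probe GC (adjusted p = 0.0867 and 0.0948, in that order).

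Of 74 detected nuclear genes of oxidative phosphorylation 2 rose (2.7%) and 1 fell (1.35%), Sdha (1.01 ± 0.24 (SE), adjusted p = 0.0155) and Ndufs1 (0.87 ± 0.22 (SE), adjusted p = 0.0178) against Cox6b1 (-1.04 ± 0.22 (SE), adjusted p = 0.0092). Of 25 glycolytic genes 3 rose (12%) and 1 fell (4%). Ldhb, a lactate dehydrogenase subunit, read -2.47, -2.41 and -2.71 (Old) and -1.43 and -0.82 (Geriatric) (change 1.41 ± 0.26 (SE), adjusted p = 0.004), and Pdk2, which turns off pyruvate dehydrogenase, rose by 0.96 ± 0.24 (SE) (adjusted p = 0.0184). Gapdh, often used as a control gene, fell by 0.55 ± 0.17 (SE) (adjusted p = 0.0412; 1 of its 8 probes higher), a call lost under quantile normalization (adjusted p = 0.919) and with the adjustment for probe GC (adjusted p = 0.331). Of 50 antioxidant and glutathione genes 5 rose (10%) and 2 fell (4%). The glutathione transferases Gsta4 (1.53 ± 0.32 (SE), adjusted p = 0.0076) and Gstt3 (1.05 ± 0.24 (SE), adjusted p = 0.0129) and the glutathione synthetase Gss (1.18 ± 0.27 (SE), adjusted p = 0.0125) rose, and Srxn1, which repairs peroxiredoxins, fell by 1.5 ± 0.42 (SE) (adjusted p = 0.0283). The glycolysis list had 0, 2, 1, 3 and 3 members higher without Geriatric 3, Geriatric 1, Old 1, Old 2 and Old 3 in turn. The antioxidant list had 0, 3, 5, 3 and 5 members higher in the same order. Sdha, Ndufs1, Ldhb, Pdk2, Gapdh, Gsta4, Gstt3, Gss and Srxn1 no longer passed without Geriatric 3, and Sdha, Ndufs1, Cox6b1, Gapdh and Gss without Geriatric 1 (adjusted p = 0.0504 to 0.233). Ndufs1, Pdk2, Gapdh and Srxn1 lost the call without Old 1, Sdha, Gapdh and Srxn1 without Old 2, and Gapdh and Srxn1 without Old 3, within the same range. Gapdh also lost the call without Young 1, Young 3, SAMR1 1, SAMR1 2 or SAMR1 3. 

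Genes that break down proteins and organelles rose in shares near the 9.1% over all genes with a symbol. Of 45 lysosomal genes 0 fell and 4 rose (8.89%), among them Npc1, a cholesterol transporter (0.80 ± 0.20 (SE), adjusted p = 0.0171). Of 40 proteasome genes 0 fell and 4 rose (10%), among them Psmb7 (0.77 ± 0.21 (SE), adjusted p = 0.0283). Of 40 autophagy genes 3 rose (7.5%) and 2 fell (5%). Atg13, which starts autophagosomes, rose by 0.99 ± 0.21 (SE) (adjusted p = 0.0087), and Vmp1, listed as Tmem49, fell by 1.02 ± 0.29 (SE) (adjusted p = 0.0307). Cytosolic ribosomal protein genes had 0 of 73 higher and 3 lower (4.11%), with a median change of -0.35 that turned to 0.05 under quantile normalization and 0.04 with the authors' deposited values, so no direction is given. Mitochondrial ribosomal proteins had 5 of 77 higher and 1 lower. Among 55 translation initiation genes 2 rose, of which Eif2ak3, the stress kinase PERK, also stood alone among 30 genes of the unfolded protein response as higher. It read -4.47, -4.42 and -3.57 (Old) and -2.12 and -2.22 (Geriatric), a 3.94-fold rise (1.98 ± 0.29 (SE), adjusted p = 0.0013), and Atf4, the factor whose translation PERK favours, fell (-0.79 ± 0.20 (SE), adjusted p = 0.0202; second probe 0.17). Of 49 heat shock proteins and chaperones 2 rose and 1 fell. The lysosomal list had 1, 0, 1, 1 and 5 members higher without Geriatric 3, Geriatric 1, Old 1, Old 2 and Old 3 in turn, and 8 with the adjustment for probe GC. The proteasome list had 0, 1, 2, 0 and 8 members higher in the same order. The autophagy list had 0, 1, 1, 1 and 2 members higher in the same order, 3 with the adjustment for probe GC and 1 with that adjustment and the replicate block. The cytosolic ribosomal list had 0, 1, 2, 0 and 2 members lower in the same order, 5 with the adjustment for probe GC and 0 with that adjustment and the replicate block. The mitochondrial ribosomal list had 0, 1, 1, 1 and 8 members higher in the same order, 8 with the adjustment for probe GC and 2 with that adjustment and the replicate block. Npc1, Psmb7, Atg13, Tmem49 and Atf4 no longer passed without Geriatric 3, and Npc1, Psmb7, Tmem49 and Atf4 without Geriatric 1 (adjusted p = 0.0558 to 0.189). Psmb7, Tmem49 and Atf4 lost the call without Old 2, and Tmem49 without Old 3, within the same range. The call of Atf4 was lost with the adjustment for probe GC (adjusted p = 0.0591). It was also lost under quantile normalization (adjusted p = 0.184) and with the authors' deposited values (adjusted p = 0.107).

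Of 47 detected DNA repair genes 6 rose (12.8%) and 1 fell. Xpa, which recognises damage in nucleotide excision repair, read 0.20, 0.61 and 0.07 (Old) and 1.38 and 2.13 (Geriatric), with both probes higher (change 1.46 ± 0.29 (SE), adjusted p = 0.0059). The checkpoint kinase Atr (1.0 ± 0.25 (SE), adjusted p = 0.0167) and the recombination gene Xrcc3 (1.03 ± 0.27 (SE), adjusted p = 0.0241) rose, as did Ercc2 and Ercc5. H2afx, the histone variant that marks double-strand breaks when phosphorylated, fell by 1.54 ± 0.30 (SE) (adjusted p = 0.0055). Among 22 circadian genes 3 rose and 0 fell, and Clock, a core activator of the clock, was among those that rose (1.56 ± 0.44 (SE), adjusted p = 0.0309). The repair list had 1, 2, 1, 3 and 7 members higher without Geriatric 3, Geriatric 1, Old 1, Old 2 and Old 3 in turn, 8 with the adjustment for probe GC and 3 with that adjustment and the replicate block. The circadian list had 0, 0, 0, 1 and 1 members higher in the same order, and 1 with the adjustment for probe GC. Xpa, Xrcc3, H2afx and Clock no longer passed without Geriatric 3, and Atr and Clock without Geriatric 1 (adjusted p = 0.0501 to 0.2). Atr, Xrcc3 and Clock lost the call without Old 1, Clock without Old 2, and Xrcc3 without Old 3, within the same range. The call of Clock was lost with the adjustment for probe GC (adjusted p = 0.058).

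The genes of the 4 antigens used to remove other cells did not pass. Ptprc, which encodes CD45, read -1.72, -1.89 and -1.69 on the Old and -1.57 and -2.03 on the Geriatric arrays, with a change of -0.03 ± 0.27 (SE) (adjusted p = 0.939). Pecam1, which encodes CD31, read -0.41, -0.81 and -1.68 (Old) and -3.52 and 0.11 (Geriatric), with a change of -0.75 ± 1.30 (SE) (adjusted p = 0.705), and Ly6a, which encodes Sca1, by 0.19 ± 0.98 (SE) (adjusted p = 0.904). Itgam, the CD11b gene, read 8.06, 8.59 and 7.89 (Old) and 7.42 and 7.48 (Geriatric) (change -0.74 ± 0.33 (SE), adjusted p = 0.136), above the 75th percentile on every array although CD11b was used to remove cells. Of 17 detected leukocyte markers 0 rose and 3 fell, the monocyte genes Cd14 (-1.44 ± 0.24 (SE), adjusted p = 0.0027), Lyz2 (-1.70 ± 0.46 (SE), adjusted p = 0.0251) and C1qb (-0.90 ± 0.28 (SE), adjusted p = 0.0412), and 15 of the 17 had a change below 0. Their summed level was 251 to 403 on Old and 180 to 189 on Geriatric arrays, in multiples of the 75th percentile, most of it from Itgam. The 13 detected satellite cell markers summed to 161 to 204 on Old and 207 to 218 on Geriatric arrays, with 2 higher and 0 lower. The 13 smooth muscle and pericyte markers summed to 311 to 344 and 232 to 241, with Cnn1 alone called, as lower (-1.05 ± 0.26 (SE), adjusted p = 0.0184). Of these 13 changes 5 were above 0, and their median depended on the scaling. Of 9 endothelial markers 0 were called (sums 11.9 to 17 and 18.1 to 18.8). The sums were higher on Geriatric arrays, but only 3 of these 9 changes were above 0, with a median of -0.75. Muscle fibre and red cell markers each had 1 member lower, Tnnc1 (-0.90 ± 0.26 (SE), adjusted p = 0.0313) of 14 and Slc4a1 (-0.87 ± 0.22 (SE), adjusted p = 0.0187) of 5, and 0 of 6 Schwann cell and 0 of 8 adipocyte markers passed. In bulk RNA fewer cells of a type and less RNA per cell cannot be told apart, and the part of other cells in the changes above was not tested. The leukocyte list had 1, 1, 2, 1 and 4 members lower without Geriatric 3, Geriatric 1, Old 1, Old 2 and Old 3 in turn, 2 with the adjustment for probe GC and 1 with that adjustment and the replicate block. Lyz2, C1qb, Cnn1, Tnnc1 and Slc4a1 no longer passed without Geriatric 3, and Lyz2, C1qb and Tnnc1 without Geriatric 1 (adjusted p = 0.0503 to 0.226). Lyz2, Tnnc1 and Slc4a1 lost the call without Old 1, Lyz2, C1qb, Cnn1 and Tnnc1 without Old 2, and C1qb without Old 3, within the same range. C1qb also lost the call without Young 3, SAMR1 1 or SAMR1 3. Lyz2 lost it under quantile normalization (adjusted p = 0.0734) and with the authors' deposited values (adjusted p = 0.119). The calls of C1qb, Tnnc1 and Slc4a1 were lost with the adjustment for probe GC (adjusted p = 0.103, 0.0764 and 0.0645, in that order).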

How the data were processed

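Per the labels' protocols, satellite cells from dissociated muscle were sorted by flow cytometry, their RNA was extracted and amplified as a whole transcriptome, and the cDNA was labelled with Cy3 and hybridised to 1-colour Agilent arrays. The deposited scanner files hold spot intensity. Per the file headers, Agilent Feature Extraction 10.7.3.1 subtracted background and detrended the signal within each array, and probe positions are in build mm9. The deposited value table holds log2 values whose columns share 1 distribution (median 7.80). It agreed within 1.17e-04 with normexp correction and quantile normalization of the intensities, but the steps behind it are not given in the sources used here.

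Spots marked as outliers and control spots were left out, replicate spots averaged, log2 signals scaled to each array's 75th percentile, and 1 probe taken per gene. A probe well above background on all 5 Old and Geriatric arrays was preferred, and the brightest was taken among equals. Genes that reached well above background on 2 or more arrays of any group entered limma 3.58.1 (R 4.3.3), with 1 coefficient for each of the 5 groups over 14 arrays and 435 missing values. P-values for Geriatric minus Old are two-sided and adjusted by Benjamini-Hochberg over 32863 genes, with a threshold of 0.05. In simulated data for this comparison (32430 genes), limma gave the right sign to 199 of 200 genes changed by 2 log2 units and called 103, with 6 unchanged genes called. The number of arrays limits the precision. The labels call the samples biological replicates without naming the animals, so p-values measure the spread between these samples. Current symbols came from RefSeq by accession for 26300 probes and by name for 2044, and 27337 probes kept the file's name. Named genes were the 12 largest rises and falls whose arrays did not overlap and whose direction held within slide 2, up to 3 called members of each list by p in each direction, and 13 genes fixed by name. Other list members are named without values. Genes of 1 list that are also in another are counted in both. Members, lists and tests were chosen with earlier results of these data known, and the adjustment for probe GC was added after the data were seen. Alternatives changed 1 choice at a time, except the adjustment for probe GC with the replicate block, the authors' deposited values (background correction and normalization together) and the fit within slide 2, which left out Old 2 and the other 3 groups. Some genes are not reported here.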

Additional observations from a re-analysis of the deposited data

Results flagged for a closer look

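Outside the autosomal comparison, 4 sex-linked transcripts differed between groups labelled male throughout. Xist was at least 2790-fold higher in the Old samples (measured mean level 5.26 against -7.24, limma adjusted p = 3.34e-05), well above background on 3 of 3 Old and 0 of 2 Geriatric arrays. Of the Y-chromosome genes, Ddx3y was at least 49.1-fold higher in the Geriatric samples (limma adjusted p = 8.49e-07), Uty at least 20-fold (adjusted p = 1.02e-06) and Kdm5d at least 10.3-fold (adjusted p = 5.54e-06), each above background on 2 of 2 Geriatric and 0 of 3 Old arrays. Each bound sets the mean of the brighter group against, per array, the higher of the probe's own signal and the lowest signal among probes well above background. The sex-linked difference and age group cannot be told apart.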

How the results depend on the processing

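With only the 5 arrays fitted, 295 genes were higher and 1286 lower, and within slide 2 there were 17 and 300, with fewer arrays behind each. The replicate block gave 973 higher and 1968 lower. The labels do not say what a shared replicate number stands for. The differences between replicates 1 and 3 of Geriatric and Old cells correlated with r = 0.148, and 2 pairs do not settle whether the numbers mark a shared batch. With the adjustment for probe GC, chosen after seeing the data, plus the replicate block there were 906 and 1569. Normexp background correction gave 4317 lower. Leaving out 1 array gave 290 to 1921 higher, 808 to 3194 lower and a median change between -0.1584 and -0.1068. The median change of all members, -0.13 as reported, was 0.064 under quantile normalization and 0.0244 with the authors' deposited values. It was -0.1034 with slide as a block, -0.1068 within slide 2, -0.1564 with the percentile over probes detected on all 14 arrays and -0.1622 with normexp. It was -0.1077 over genes detected on all 14 arrays, -0.1014 with the mean of a gene's probes, and -0.0224 with the adjustment for probe GC, alone or with the replicate block.

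Of the 174 named genes that were called, 34 kept their call without any 1 of the 14 arrays, 127 lost it without Geriatric 3, 92 without Geriatric 1, 71 without Old 2, 61 without Old 1, 17 without Old 3 and 24 without some Young, SAMR1 or SAMP8 array. No direction changed in these, which the choice of non-overlapping arrays fixed in advance for the 12 largest rises and 12 largest falls. The calls lost numbered 40 with the adjustment for probe GC, 48 with the replicate block, 69 with both, 23 under quantile normalization, 22 with the authors' values, 26 with the mean of a gene's probes, 118 with only the 5 arrays, 162 within slide 2 and 5 with slide as a block. Among genes given with values, Suv39h2, Hdac7, Smad1, Fosl2, Rspo3, Col4a3, Ptbp1 and Hist2h2be lost the call both under quantile normalization and with the authors' values. So did Lyz2, C1qb, Slc4a1, Il6, Ccl8, Atf4 and Gapdh, and Dcc lost it under quantile normalization only. Changes turned sign for Suv39h2 with the authors' values (0.0232), Hnrnpa3 with the mean of probes (0.0228), and Srsf12 under quantile normalization (0.0674) and with the authors' values (0.1076). Among genes not called, Cdkn2a turned with normexp (-0.0066) and Vcam1 with the mean of probes (0.27). Ptprc turned under quantile normalization (0.202), with the authors' values (0.1052), without Old 3 (0.0034), without Geriatric 3 (0.1984), with the adjustment for probe GC (0.275) and with that and the block (0.2371). Without 1 array each, Ptprc ranged from -0.2653 to 0.1984, Pecam1 from -2.5599 to 1.0691 and Ly6a from -0.5518 to 1.0073. Pecam1 turned without Geriatric 1 (1.0691), and Ly6a within slide 2 and without Old 2 (-0.4533 in both), with normexp (-0.0677) and without Geriatric 3 (-0.5518). The cause was not tested. Of 1094 called genes with several detected probes, 201 had probes of opposite sign.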
